A study of Mus musculus with 23 samples.

Results

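The heat shock chaperones described here are 10 genes, chosen by name, of the 55487 gene identifiers in the count tables: Hspa1a, Hspa1b, Hspa8, Hspa4, Hsph1, Dnajb1, Hsp90aa1, Hsp90ab1, Hspb1 and Hspd1. RNA was sequenced from hippocampal neurons of C57Bl/6 mouse pups (postnatal day 1). The cells were plated on one side of microfluidic chambers, and axons grew through to the other side. All 4 groups received 5 µg/ml magnetic nanoparticles in the medium. Stretched cultures lay in a magnetic field gradient of 50 T/m from day in vitro 1 to day 6, and control cultures in a null gradient. Libraries were made from amplified poly(A) cDNA, 5 from control axons and 6 each from stretched axons, control somata and stretched somata. The labels call the axonal samples pure axonal and give total cell culture for the soma samples, so the soma libraries can hold RNA of neurites and of any glia in the culture. Nothing in the labels says that the libraries of a group came from separate animals or cultures, so p-values measure the spread between these libraries, which may be technical.

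Heat shock chaperones bind unfolded or partly folded proteins and keep them from aggregating. Proteins of the HSP70 family work in an ATP cycle in which J-domain proteins deliver clients and HSP110 proteins exchange the nucleotide, HSP90 proteins take over many clients for late folding steps, small heat shock proteins hold clients without ATP, and the chaperonin HSP60 folds proteins inside mitochondria. Under stress, heat shock factor 1 binds heat shock elements, inverted repeats of the unit GAA, and raises transcription of the inducible members. Neurons are known for a weak induction of HSP70 and a high basal level of Hsc70, and transport of chaperones along axons has long been described.

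Promoter sequences hold the letters that heat shock factors recognise. RefSeq windows of 250 bases before an annotated start (build GRCm38.p6) matched 7 of the 10 genes, with 10 windows in all. The motifs searched were the 2-unit element GAANNTTC or TTCNNGAA and the 3-unit element GAANNTTCNNGAA or TTCNNGAANNTTC. Each motif was read on both strands, and each 3-unit element contains 2-unit ones. Of 32851 RefSeq promoters of this length, 12.8% held a 2-unit and 0.466% a 3-unit element. Windows of 5 of the 7 genes held a 2-unit element, and 1 gene, Hspd1, a 3-unit element. These counts are per gene, with 2 windows each for Dnajb1, Hsph1 and Hspd1, while the background is per window. The 5 genes include Hspa1a and Hspa1b, whose windows are near copies. All 250 bases of the Hspd1 window with the elements lay in exons. The counts are therefore not directly comparable with the background. The windows of Hspa4 and Dnajb1 held no such letters. Of the 2 Dnajb1 windows, 1 had 245 of its 250 bases in exons of Dnajb1 itself, and the other had 47 bases in exons of Tecr. The windows of the inducible HSP70 pair and of Hspb1 are shown because the pair shares nearly all of its bases while its counts differ widely, and because Hspb1 changed most in somata. Capitals mark the heat shock elements, and each run reads 5′ to 3′ on the gene's strand (Hspa1a chr17:34972157-34972406, minus strand; Hspa1b chr17:34959239-34959488, minus strand; Hspb1 chr5:135887669-135887918, plus strand).
Hspa1a: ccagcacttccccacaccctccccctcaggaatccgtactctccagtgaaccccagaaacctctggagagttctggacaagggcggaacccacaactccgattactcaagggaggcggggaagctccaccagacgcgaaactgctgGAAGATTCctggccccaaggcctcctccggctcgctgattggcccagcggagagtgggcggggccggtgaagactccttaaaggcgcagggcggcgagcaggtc
Hspa1b: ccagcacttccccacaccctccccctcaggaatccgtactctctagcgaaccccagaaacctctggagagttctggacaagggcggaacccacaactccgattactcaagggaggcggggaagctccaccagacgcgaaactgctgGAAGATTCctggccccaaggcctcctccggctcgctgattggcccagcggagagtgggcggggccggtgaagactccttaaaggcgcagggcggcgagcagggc
Hspb1: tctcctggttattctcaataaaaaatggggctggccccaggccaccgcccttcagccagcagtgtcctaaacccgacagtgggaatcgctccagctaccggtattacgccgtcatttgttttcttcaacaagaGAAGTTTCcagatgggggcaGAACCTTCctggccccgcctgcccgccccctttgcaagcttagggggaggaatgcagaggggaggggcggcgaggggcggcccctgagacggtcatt
Hspa1a and Hspa1b had the same base at 247 of these 250 positions, and in both the element ends 97 bases before the start. Hspb1 carried 2 elements. In Hsph1 and Hspd1 the windows overlapped annotated exons, so only 30 bases around an element are given (Hsph1 chr5:149636351-149636380, minus strand; Hspd1 chr1:55088053-55088082, minus strand).
Hsph1: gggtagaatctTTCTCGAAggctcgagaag
Hspd1: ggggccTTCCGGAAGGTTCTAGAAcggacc
A match describes the letters and does not show binding.

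The libraries held 16369153 to 43048953 counts assigned to genes, so that 3 counts, the limit a count of 0 allows, stand for 0.0697 to 0.183 counts per 1000000 (CPM). This floor covers counting error only. At least 1 count was found for 22452 to 24575 genes in soma libraries but for 4263 to 10242 in axonal ones. Summed CPM of 9 neuron markers ran from 5720 to 7015 in somata and from 1545 to 4515 in axons, with none of the 9 at 0 in any group. Astrocyte markers (8 genes) summed to 4771 to 12976 CPM in somata and to 3978 to 21496 CPM in axons, with none of the 8 at 0 in any group. RNA of these marker genes was thus present in both compartments, and the cells it came from were not tested. In bulk samples fewer cells of a type and less RNA per cell cannot be told apart.

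Stretched somata had less Hspa8, Hsp90aa1, Hsp90ab1 and Hspb1 RNA than control somata, with log2 changes between -0.38 and -1.45. Dnajb1 fell at the edge of the threshold. The other 5 genes, the stress-inducible Hspa1a and Hspa1b among them, did not pass the test. Thus 5 of the 10 genes were lower and 0 higher, while of the 15632 genes tested with edgeR 25.1% were called, 13.9% lower and 11.2% higher (adjusted p under 0.05). The median log2 change was -0.17 over the 10 genes and -0.03 over all genes tested. Together the 10 genes took 0.639% ± 0.0611 (SD, n = 6) of all counts in control somata and 0.519% ± 0.0187 (SD, n = 6) in stretched somata. The ranges, 0.558% to 0.688% and 0.504% to 0.552%, did not overlap. The largest parts were Hspa8, Hsp90ab1 and Hsp90aa1 (means of 2911, 1923 and 567 CPM in control somata), already called lower one by one. The share is thus no separate result on the 10 genes. How many of all genes separate the groups without overlap was not counted. Not every setting gave these calls. Of the 10 genes 0 passed when all 4 groups shared 1 estimate of it (biological coefficient of variation 1.70 against 0.240), and 0 by an exact permutation test, in which Hspa8, Hsp90aa1, Hsp90ab1 and Hspb1 had adjusted p = 0.0515. At an unadjusted p under 0.05 these settings gave 0 and 7 of the 10, against 262 of 16113 and 5908 of 15632 genes tested. After adjustment neither called any of the genes tested. Without control replicate 4, 7 of the 10 passed (6 lower and Hsph1 higher), as did 6072 of 15857 genes against 3929 with it.

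**Figure D1:**
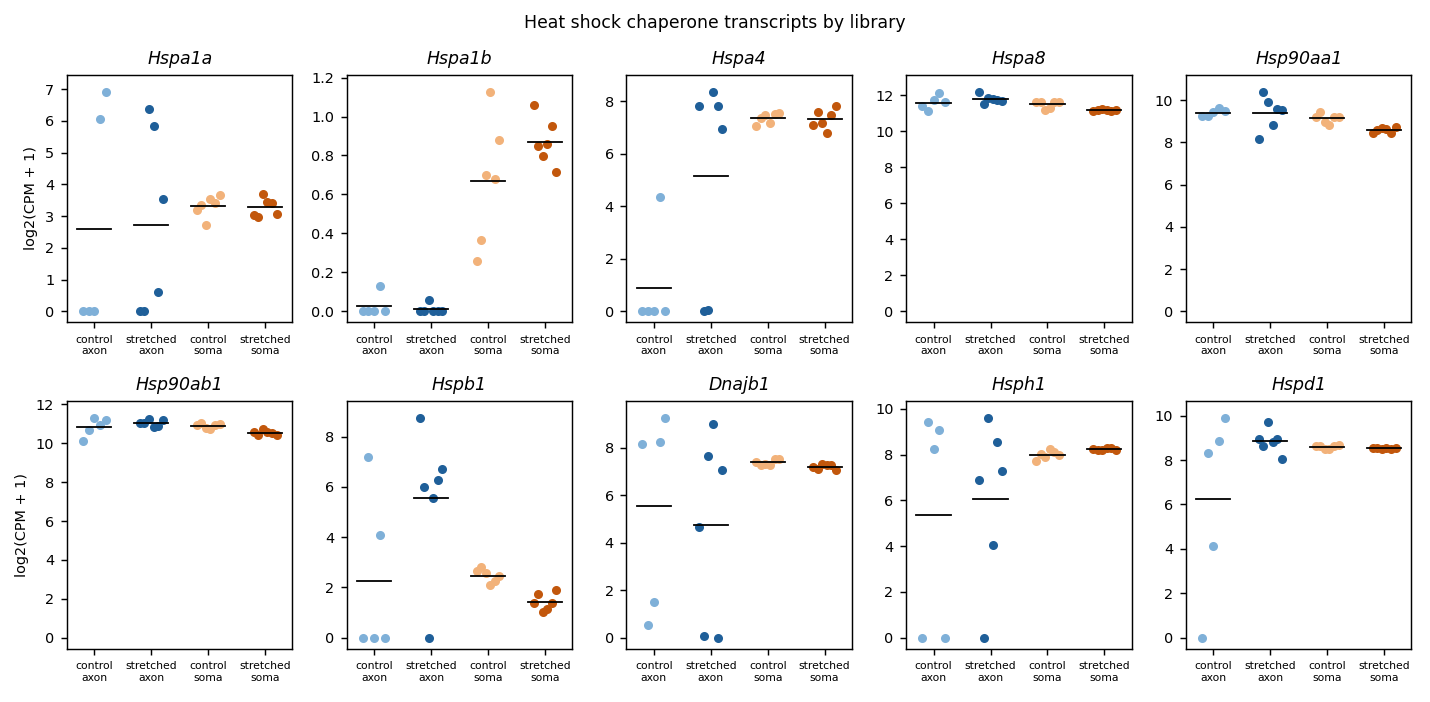
Each panel plots log2(CPM + 1) of 1 gene (vertical axis, scale set per panel) for the 4 groups, with 1 point per library (5 control axon, 6 in each other group) and the mean as a bar. Hsp90aa1 and Hspb1 separate control from stretched somata without overlap, and how many of all genes do so was not counted. Hspa4, Hspb1, Dnajb1, Hsph1 and Hspd1 range from 0 to 324 CPM or more among axonal libraries.

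Hspa8 (chr9:40800984-40810087, plus strand, GRCm38) encodes Hsc70, the constitutive HSP70 of the cytosol, which also uncoats clathrin vesicles at synapses. In control somata it stood at 3098, 3103, 2357, 2544, 3147 and 3215 CPM (replicates 1 to 6). In stretched somata it stood at 2206, 2292, 2418, 2343, 2198 and 2363 CPM (replicates 1, 2, 4, 5, 6 and 8). Only control replicate 3, at 2357 CPM, reached into the stretched range, and the stretched libraries lay much closer together (SD 88.4 against 364 CPM). Hspa8 fell by 0.38 on the log2 scale (SE 0.09, adjusted p = 0.00938).

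Hspa1a and Hspa1b, neighbours on chromosome 17 (chr17:34969190-34972156 and chr17:34956436-34959238, minus strand), encode the inducible HSP70 that is low in unstressed cells. Hspa1a had 8.16, 9.21, 5.55, 10.6, 9.59 and 11.6 CPM in control somata. Stretched somata had 7.24, 6.91, 11.9, 9.99, 9.59 and 7.42 CPM, within nearly the same range. The log2 change was -0.08 (SE 0.19, adjusted p = 0.778). Hspa1b was lower still, at 0.196 to 1.18 CPM (median 0.612) in control and 0.639 to 1.08 CPM (median 0.806) in stretched somata. Control replicates 1 and 2 had the 2 lowest values, and the log2 difference of 0.38 (SE 0.38, adjusted p = 0.481) lay within its error. Of 150-base windows of their longest transcripts, 46.0% in Hspa1a and 40.5% in Hspa1b occur in another gene, mostly in each other, so reads there cannot be assigned to 1 gene. In addition, Gm20481 lies opposite 74.99% of Hspa1a and had 0 counts in all 23 libraries. The strand setting of the counting is not given in the sources used here, so reads from this stretch may have gone uncounted. The levels of both genes are therefore uncertain.

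Hspa4 and Hsph1 belong to the HSP110 family, nucleotide exchange factors for HSP70. Hspa4 (chr11:53259814-53300457, minus strand) had 131, 165, 177, 143, 183 and 184 CPM in control somata. In stretched somata it had 135, 191, 143, 110, 177 and 227 CPM, spanning the control range on both sides (log2 change -0.04, SE 0.15, adjusted p = 0.859, and 0.0017 with scaling by total counts alone). Hsph1 (chr5:149614287-149636376, minus strand), which encodes HSP105, had 211, 258, 239, 306, 272 and 254 CPM in control somata. Its stretched values were 299, 297, 293, 312, 316 and 291 CPM, and only control replicate 4 reached them. The log2 difference of 0.19 (SE 0.08) did not pass (adjusted p = 0.096). Without control replicate 4 it was 0.23 (SE 0.07, adjusted p = 0.0152). With offsets for transcript length and GC content it was 0.01.

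Hsp90aa1 and Hsp90ab1 encode the inducible and the constitutive cytosolic HSP90. Hsp90aa1 (chr12:110690605-110702728, minus strand) had 582, 702, 497, 446, 595 and 581 CPM in control somata. Stretched somata had 353, 384, 409, 397, 350 and 417 CPM, all below the lowest control library. Hsp90aa1 fell by 0.60 on the log2 scale (SE 0.10, adjusted p = 0.00356), the second largest change of the 10. Hsp90ab1 (chr17:45567775-45573271, minus strand) had 1979, 2081, 1778, 1677, 1978 and 2043 CPM in control and 1522, 1367, 1730, 1544, 1488 and 1396 CPM in stretched somata. The 2 groups overlapped only in their libraries numbered 4, and Hsp90ab1 fell by 0.39 (SE 0.08, adjusted p = 0.00737). Per kilobase of the longest transcript, the level of Hsp90aa1 was 0.226 ± 0.0188 (SD, n = 6) of that of Hsp90ab1 in control and 0.197 ± 0.0213 (SD, n = 6) in stretched somata, and these ratios overlapped. Of 150-base windows, 36.2% in Hsp90aa1 and 0% in Hsp90ab1 occur in another gene. Reads there cannot be assigned to 1 gene, so the size of this ratio is uncertain.

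Dnajb1 (chr8:83608193-83612653, plus strand) encodes HSP40, the J-domain partner of HSP70. Control somata had 167, 154, 158, 153, 183 and 180 CPM, and stretched somata 143, 137, 158, 154, 151 and 133 CPM. The groups overlapped between 153 and 158 CPM. Dnajb1 fell by 0.23 (SE 0.08) with an adjusted p of 0.049981, barely under the threshold. It passed in 2 of the 12 fits that left out 1 library each and missed the threshold in the other 10, and with the length and GC offsets the difference was -0.14 (adjusted p = 0.247). Hspa8, Hsp90aa1, Hsp90ab1 and Hspb1 passed in all 12 such fits.

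Hspb1 (chr5:135887919-135889563, plus strand), the small heat shock protein HSP25 that also binds actin, changed most. It stood at 5.23, 6.07, 4.93, 3.25, 3.72 and 4.47 CPM in control somata. In stretched somata it stood at 1.58, 2.36, 1.05, 1.17, 1.61 and 2.7 CPM. All 6 stretched libraries lay below all 6 control libraries, and Hspb1 fell by 1.45 on the log2 scale (SE 0.26, adjusted p = 0.00428). With the length and GC offsets it fell by 1.01. Hspb1 is short, and 36.6% of its 150-base windows occur in another gene, among them the pseudogene Hsp25-ps1. Hspd1 (chr1:55077835-55088243, minus strand) encodes mitochondrial HSP60. It ranged from 360 to 406 CPM (median 396) in control and from 357 to 377 CPM (median 369) in stretched somata, and its log2 change of -0.11 (SE 0.06, adjusted p = 0.189) did not pass. Without control replicate 4 it was -0.15 (adjusted p = 0.0442).

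**Figure D2:**
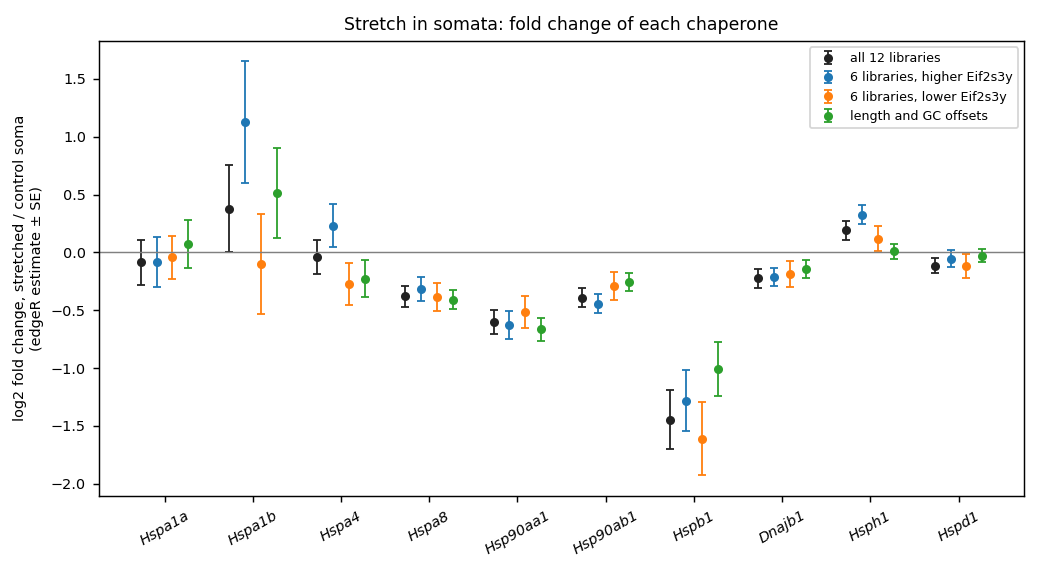
Points give the log2 fold change of stretched over control somata for each gene (horizontal axis) with its standard error, estimated by edgeR in all 12 libraries, in the 6 libraries with the higher and the 6 with the lower Eif2s3y level, and with offsets for length and GC content. Hspa8, Hsp90aa1, Hsp90ab1 and Hspb1 lie below 0 in all 4 estimates, while Hspa1a, Hspa1b and Hspa4 take both signs.

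The soma libraries differ in the level of Eif2s3y, a Y-linked gene, which was 24.7 to 28.7 CPM in 6 libraries and 5.39 to 13.2 CPM in the other 6, with 3 libraries of each group in each set. Among the libraries with the higher level, Hspa8 fell by 0.32, Hsp90aa1 by 0.63, Hsp90ab1 by 0.45 and Hspb1 by 1.28 on the log2 scale. These 4 had adjusted p under 0.05, and Hsph1 rose by 0.33 (adjusted p = 0.0181). In this set 4637 of 15867 genes tested passed. Among the libraries with the lower level Hspa8, Hsp90aa1, Hsp90ab1, Hspb1 and Hsph1 differed by -0.38, -0.52, -0.29, -1.61 and 0.12. In this set 0 of the 10 genes passed, as did 0 of 15718 genes tested. A setting added after the data were seen left control replicate 4 out of this lower set. Hspa8 then fell by 0.51, Hsp90aa1 by 0.66, Hsp90ab1 by 0.39, Hspb1 by 1.74 and Dnajb1 by 0.29. All 5 were past the threshold, as were 4462 of 16237 genes tested. No other library was left out of this set, and the cause of the change was not tested. Markers of other cells were also summed in each soma library. Summed CPM of 7 microglia markers were 38.1 to 75.7 in control and 27.9 to 35.9 in stretched somata, without overlap. Those of 5 endothelial or mural markers were 128 to 211 and 173 to 228, with overlap. Gene by gene, 2 of 7 microglia and 1 of 4 fibroblast markers were lower. Higher were 1 of 5 endothelial or mural and 1 of 5 oligodendrocyte lineage markers tested. Of 8 astrocyte markers 0 were called, and of 9 neuron markers 3 were higher and 3 lower. Over all genes tested 25.1% were called. The part of such cells in the chaperone changes was not tested.

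The levels of the 10 genes span more than 3 orders of magnitude. Per kilobase of the longest transcript, control somata (mean CPM per kb ± SD, n = 6) had 922 ± 115 of Hspa8, 763 ± 63.3 of Hsp90ab1, 173 ± 26.9 of Hsp90aa1 and 160 ± 7.96 of Hspd1. Dnajb1 (55.4 ± 4.39), Hsph1 (53.9 ± 6.65) and Hspa4 (35.4 ± 4.83) formed a middle range. Hspb1 (4.96 ± 1.10), Hspa1a (3.07 ± 0.713) and Hspa1b (0.222 ± 0.129) were lowest. Neighbours in this order exceeded one another in 6 of 6 control libraries except in 3 cases. Hsp90aa1 exceeded Hspd1 in 5 of 6 control and in 0 of 6 stretched somata, Dnajb1 exceeded Hsph1 in 4 of 6 and 0 of 6, and Hspb1 exceeded Hspa1a in 5 of 6 and 2 of 6. The share of 150-base windows that occur in another gene was 36.2% in Hsp90aa1, 22.4% in Hspa8 and 18.6% in Hspd1, against 0% in Hsp90ab1. Reads there cannot be assigned to 1 gene, so the order across genes is uncertain. These levels are descriptions, without a test.

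Over the 12 soma libraries the 5 genes that fell correlated with each other to different degrees. Pearson's r of log2(CPM + 1) was 0.93 between Hspa8 and Hsp90aa1, 0.89 between Hspa8 and Hsp90ab1 and 0.86 between Hsp90aa1 and Hspb1. It was lower between Hsp90ab1 and Hspb1 (0.69), Hsp90aa1 and Dnajb1 (0.65) and Hspb1 and Dnajb1 (0.40). Hspd1, which did not pass the test, had r of 0.89 with Hspa8. Both Hsph1 (r of -0.74) and Hspa1b (-0.71) ran opposite to Hsp90aa1, with r of 0.78 between them. Hspa1a had r of 0.14 with Hsp90aa1 and reached at most 0.47, with Dnajb1. Of 9509 genes averaging 10 CPM or more, those most like Hspa8 were Rbmxl1 (r = 0.98), Impdh2 (0.97) and Nop56 (0.97), and those most like Hsph1 were Arl6ip6 (0.98), Golga2 (0.98) and Tmem183a (0.97). The libraries of a group share their condition, so these coefficients include the group difference and are descriptions.

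Other genes of the chaperone network were read from lists in the same soma comparison, in which 25.1% of all genes were called. This background changes with the setting. With the length and GC offsets 2497 of 15632 genes were called, 936 higher and 1561 lower. Without control replicate 4 it was 6072 of 15857, 2889 higher and 3183 lower. Among small heat shock proteins, 2 of 6 genes tested were lower and 0 higher (median log2 change -0.67): Cryab fell by 0.69 (adjusted p = 0.0155) and Hspb6 by 0.77 (0.0261), while Hspb8 differed by -0.54 (0.282). Of the 9 chaperonin genes tested, 6 were lower and 0 higher (4 and 0 with the length and GC offsets). Hspe1, the lid of HSP60, fell by 0.43 (0.00891), and Tcp1 and Cct3, subunits of the cytosolic TRiC ring, fell by 0.31 (0.0106) and 0.35 (0.0132). Thus Hspd1 differed by less than its partner Hspe1, but the difference between them was not tested. Of 21 co-chaperones of HSP70 and HSP90, 7 were lower and 3 higher (11 and 4 without control replicate 4, and 4 and 3 with the length and GC offsets). Bag1, a nucleotide exchange factor, fell by 1.73 (0.00969), Hspbp1, another exchange factor, by 0.40 (0.00575) and Stub1, the ubiquitin ligase CHIP, by 0.40 (0.00604).

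Of 25 J-domain genes, 5 rose and 5 fell (6 and 9 without control replicate 4, and 2 and 7 with the offsets). Dnajb5 rose by 0.60 (adjusted p = 0.0114) and Dnajc6, the auxilin that works with Hsc70 on clathrin coats, by 0.68 (0.00843), while Dnajb12 fell by 0.56 (0.00747). Of 9 other HSP70 family genes tested, 2 rose and 0 fell, a share near that of all genes: Hspa12a by 0.61 (0.00945) and Hyou1, an HSP110 of the endoplasmic reticulum, by 0.68 (0.0127). With the offsets 2 rose and 2 fell. Hspa5, the HSP70 of the endoplasmic reticulum also called BiP, differed by -0.19 (0.121). Among 14 ER chaperones 2 rose and 2 fell, also a share near that of all genes (2 and 7 without control replicate 4, and 2 and 3 with the offsets), with Canx up by 0.27 (0.0158) and Hsp90b1 down by 0.31 (0.0187), and the mitochondrial HSP90 Trap1 differed by -0.04 (0.770). Of 4 heat shock factor genes tested, Hsbp1, a binding protein of heat shock factor 1, fell by 0.22 (0.0394). Hsf1 and Hsf2 differed by 0.12 (0.464) and 0.42 (0.0583). Of 8 immediate early genes Dusp1 alone passed, lower by 0.87 (0.0248), with Fos at -0.87 (0.0664) and Jun at -0.23 (0.114). With the length and GC offsets Hspbp1 (-0.05), Stub1 (-0.05), Hsbp1 (-0.0007), Canx (0.07), Cryab (-0.37), Hspb6 (-0.52), Hspe1 (-0.22) and Dusp1 (-0.68) no longer passed. With these offsets 0 small heat shock, heat shock factor and immediate early genes of the lists passed, while calls over all 15632 genes also fell, from 3929 to 2497. Without control replicate 4 Hsf2 passed (0.0138). Lists were counted, not tested as sets.

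**Figure D3:**
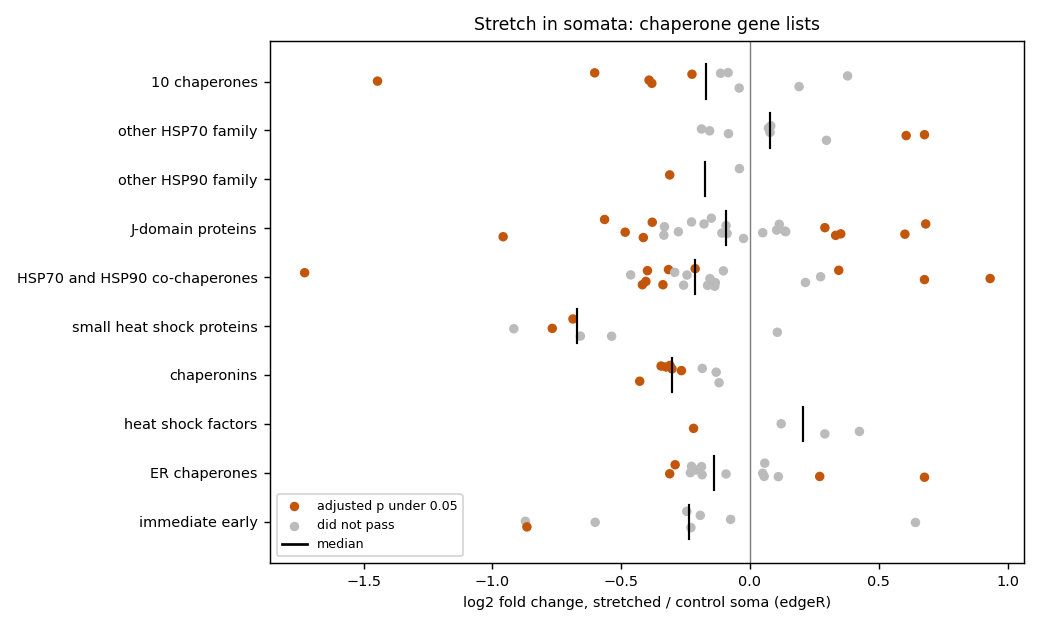
Each point is 1 gene, placed by its log2 fold change of stretched over control somata (horizontal axis), in rows by gene list, with the list median as a vertical bar and genes with an edgeR adjusted p under 0.05 in orange. The chaperonins lie to the left of 0 with 6 of 9 called, and the J-domain proteins are called on both sides.

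Axonal libraries held the 3 most abundant chaperones in every sample and the others in a scattered way. Hspa8, Hsp90aa1 and Hsp90ab1 had counts in 11 of 11 axonal libraries, Dnajb1 and Hspd1 in 10, Hsph1 in 8, Hspb1 in 7, Hspa1a and Hspa4 in 6 and Hspa1b in 2. Detection followed level: of 88 genes with a soma mean of 1000 CPM or more, 92.0% had counts in all 11, against 23.7% of 2279 genes with 100 to 1000 CPM. Genes with a soma mean of 1 to 10 CPM had counts in a median of 1 axonal library, and both Hspb1 and Hspa1a, in that range, were found in more. Among 1035 genes with counts in all 11, the coefficient of variation over axonal libraries had a median of 57.1%, and was 20.3% for Hspa8, 20.1% for Hsp90ab1 and 37.5% for Hsp90aa1.

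**Figure D4:**
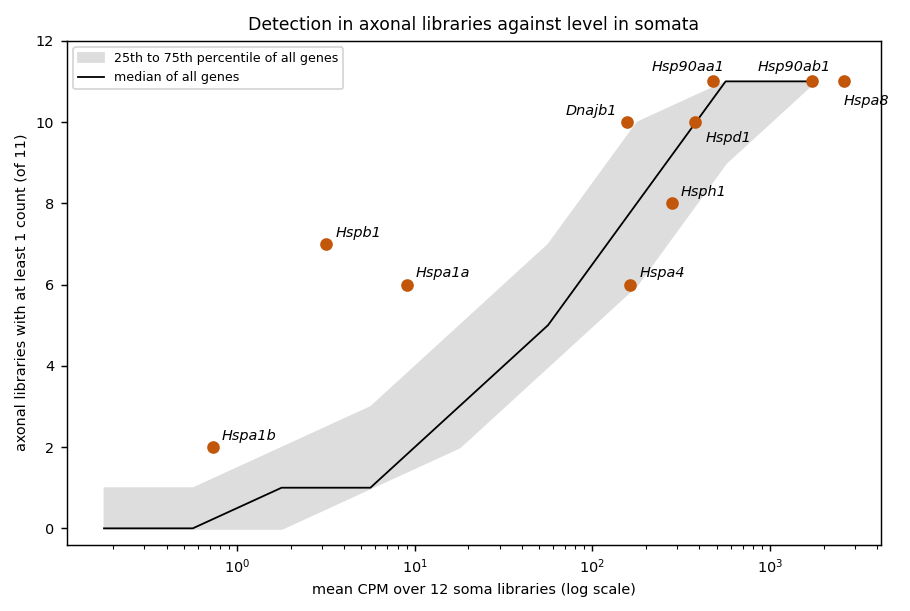
The number of axonal libraries with at least 1 count (vertical axis, of 11) is plotted against the mean CPM over 12 soma libraries (log scale), with the 10 genes as points and the median and the range from the 25th to the 75th percentile of all genes as a line and band. Hspb1, Hspa1a and Hspa1b lie above the band, Hspa4 lies at its lower edge, and Hspa8, Hsp90aa1 and Hsp90ab1 are at 11.

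Stretch was not seen to move the chaperones in axons: of 9 tested 0 passed, as did 0% of all 4947 genes tested with edgeR (46 genes and 0 of the 9 at an unadjusted p under 0.05; DESeq2 called 18 genes and limma 5, none of the 9). With all 4 groups in 1 edgeR fit, 3870 of 16113 genes were called and 0 of the 10. Hspa8 had 2661, 2269, 3371, 4393 and 3106 CPM in control axons (replicates 1, 2, 3, 5 and 7) and 4626, 2963, 3737, 3564, 3439 and 3229 CPM in stretched axons (replicates 1, 2, 4, 5, 6 and 8). The ranges overlapped widely (log2 difference 0.13, SE 0.22, adjusted p = 1.00). Hsp90ab1 ran from 1115 to 2492 CPM (median 1979) in control and from 1839 to 2476 CPM (median 2100) in stretched axons, a log2 difference of 0.14 (SE 0.24). Hsp90aa1 had 598 to 789 CPM (median 684) in control axons, and a wider 282 to 1332 CPM (median 754) in stretched axons, a difference of 0.13 (SE 0.46).

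Hspa4 was the most unequal between the axonal groups. It was found only in replicate 5 of the control axons, at 19.3 CPM, and not in the other 4. Stretched axons had 222, 0, 0.0417, 324, 227 and 122 CPM, so that 4 of 6 were near or above the soma level and 2 were at or near 0. The fitted log2 difference of 5.00 had an SE of 3.26 and did not pass (adjusted p = 1.00). Hspb1 had 147 CPM in control axon replicate 2, 15.9 CPM in replicate 5 and 0 in the other 3. In stretched axons it had 424, 62.4, 0, 46.3, 76.0 and 103 CPM, present in 5 of 6, with a fitted difference of 1.82 (SE 2.66). Presence of these RNAs in a library moved by orders of magnitude within each group, and the groups overlapped.

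Hspa1a was at 0 in 3 control axon libraries and at 65.5 and 119 CPM in replicates 5 and 7, above any soma library. Stretched axons had 0, 0, 82.3, 55.7, 0.521 and 10.5 CPM. Dnajb1 had 281, 0.449, 1.85, 297 and 599 CPM in control axons and 24.4, 0.0611, 199, 502, 0 and 131 CPM in stretched axons. Both genes thus swung from near 0 to several times the soma level in either group. Hsph1 had 0, 692, 306, 533 and 0 CPM in control axons and 119, 0, 765, 15.6, 378 and 154 CPM in stretched axons. Hspd1 had 0, 322, 16.6, 461 and 943 CPM in control axons and, in all 6 stretched axons, 261 to 850 CPM (median 476).

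Against somata, 2 of the 10 genes tested passed in the stretched cultures, where 29.3% of 14466 genes were called, 28.4% lower and 0.843% higher in axons. Hspb1 was higher in axons by 5.47 on the log2 scale (SE 1.498, adjusted p = 0.0133): 5 of 6 axonal libraries had 46.3 CPM or more, and the 6 soma libraries 2.7 CPM or less. It passed in each fit that left out 1 library, at 4.64 to 5.82, but not with limma, at 3.35 (SE 1.72, adjusted p = 0.0925). Limma called 3 of the 10 genes, Hspa1b, Dnajb1 and Hsph1, all lower in axons. Of the 14466 genes tested it called 10135, with 10062 lower in axons. Summed fibroblast markers ran from 0 to 1004 CPM and endothelial or mural markers from 0.794 to 1951 CPM in stretched axons, against 112 to 183 and 173 to 228 CPM in stretched somata. The axonal library with the highest Hspb1, replicate 1, also had the highest endothelial or mural sum, and Pecam1, Cldn5 and Kdr of that list were at 0 in all stretched axons. The part of such cells in the Hspb1 level was not tested. Hspa1b was called lower in axons (adjusted p = 2.752e-06), with 1 count in 6 axonal libraries against 128 in 6 soma libraries. Scaled by total counts, this is 111-fold lower, with an exact 95% interval of 19.6 to 4418 that covers counting error only. Hspa1b passed the filter through its soma counts alone. Of 18954 genes with a soma mean under 1 CPM, 80.5% had no count in any axonal library. The call is therefore not particular to Hspa1b.

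Hspa8, Hsp90aa1 and Hsp90ab1 did not differ between axons and somata past the threshold, with log2 differences in stretched cultures of 0.14 (SE 0.09), 0.50 (SE 0.34) and 0.02 (SE 0.14), and Hspd1 differed by -0.08 (SE 0.26). This reading depends on the scaling, since the median of all genes tested was -1.13 with TMM scaling and -0.73 with scaling by total counts alone. Under total counts, Hspa8 was higher in axons by 0.64, Hsp90aa1 by 0.97 and Hsp90ab1 by 0.50, all with adjusted p under 0.05. Hspd1 differed by 0.43 and did not pass. In that setting 5 of the 10 genes passed, 4 higher and 1 lower in axons. Of 14466 genes tested 4326 passed, 282 higher and 4044 lower. In control cultures 0 of 9 genes passed, where 35.3% of 14728 genes did. At an unadjusted p under 0.05 it was 0 of the 9, against 5517 of all genes tested. DESeq2 called 0 of the 9, and limma Hspa4 alone. Of these 14728 genes DESeq2 called 5376 and limma 8725. The log2 differences were -0.11 (SE 0.22) for Hspa8, 0.02 (SE 0.21) for Hsp90aa1, -0.23 (SE 0.22) for Hsp90ab1 and 2.43 (SE 2.05) for Hspb1. With total counts alone, Hspa8 (0.12) and Hsp90ab1 (0.0026) took the other sign there. Hspa4 differed by -5.44 (SE 2.46, adjusted p = 0.134), a value set by the single control axon library that held it: without replicate 5 its adjusted p was 8.74e-06. Hspa1b, too low to be tested there, had 4 counts in control axons against 92 in control somata, 20.4-fold lower after scaling (exact 95% interval 7.71 to 76.5).

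Whether stretch acted differently in axons and somata was tested as an interaction over all 4 groups. Of the 10 genes 0 passed (0 at an unadjusted p under 0.05, against 4070 of all genes), while 21.8% of 16113 genes did. This background differs by tool, since the 3509 genes called by edgeR compare with 1464 for DESeq2 and 3 for limma. The axonal change exceeded the soma change by 0.40 (SE 0.27, adjusted p = 0.526) for Hspa8, 0.63 (SE 0.46, 0.607) for Hsp90aa1, 0.43 (SE 0.28, 0.514) for Hsp90ab1, 3.29 (SE 2.45, 0.629) for Hspb1 and 4.91 (SE 2.64, 0.289) for Hspa4. DESeq2 and limma called 0 of the 10 genes as well (1 and 2 at an unadjusted p under 0.05, against 1866 and 433 of all genes). A difference between the compartments in how these genes responded was therefore not detected. Without control axon replicate 5, Hspa8 (0.68, adjusted p = 0.0280) and Hspa4 (14.5, adjusted p = 0.00863) passed, as did 4540 of 16428 genes tested. The fitted value for Hspa4 then rests on a control axon group with no Hspa4 count, and is no measure of size.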

How the data were processed

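Poly(A) RNA of 23 libraries in 4 groups was sequenced after low-input cDNA amplification, and the authors deposited whole-number counts of reads per gene, 1 table per library. The submitters' processing notes name FastQC 0.11.9, MultiQC 1.12, fastp 0.20.1, STAR 2.7.08a and HTSeq 0.13.5 and the build mm10. The annotation, the strand setting and any use of molecular identifiers are not given in the sources used here. Rows that name no gene were left out. Of all reads tallied, those rows included, ambiguous reads came to 4.37% to 5.94% and reads aligned to several places to 5.43% to 13.4%. Symbols came from the reference name table for 55141 of 55487 identifiers. CPM are counts per 1000000 assigned counts. Fold changes were fitted per comparison on the deposited counts with edgeR 4.0.16 in R 4.3.3 (filterByExpr, TMM scaling, robust quasi-likelihood F test), with Benjamini-Hochberg adjustment over all genes tested and a threshold of 0.05. The code was tested on simulated data. Alternatives were other scalings, no filter, limma 3.58.1 with voom weights and a variance per group, DESeq2 1.42.0, a replicate block, 1 fit over all 4 groups, exact permutation on log2(CPM + 1), offsets for length and GC content (mgcv 1.9.3, longest GENCODE M21 transcript), subsets by Eif2s3y, and each library left out. No 2 libraries of a group agreed within sampling noise (lowest chi-square per degree of freedom 6.11). Named besides the 10 members were the 3 genes of smallest p in each list with a mean of at least 10 CPM, and the 3 most correlated with Hspa8 and with Hsph1. Members and lists were chosen with earlier results of these data known.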

Additional observations from a re-analysis of the deposited data

Results flagged for a closer look

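Of 40 sets of values (10 genes in 4 groups), 5 held a library far from the others of its group by Dixon's criterion. For normally spread values chance gives about 1 in 20, but in 3 of the 5 sets all other libraries were at 0, where any count meets the criterion, so that rate does not apply. All 5 were axonal. Hspa1b had 0.0929 CPM in control axon replicate 5 and 0.0417 CPM in stretched axon replicate 4, and 0 in every other axonal library. Hspa4 had 19.3 CPM in control axon replicate 5 and 0 in the other 4 control axon libraries. Hspb1 had 147 CPM in control axon replicate 2, where the next library had 15.9 CPM, and 424 CPM in stretched axon replicate 1, where the next had 103 CPM. Control axon replicate 5 was also the library with the most counts, 43048953, and the most genes detected in its group, 10242. Control axon replicate 2 had the highest microglia marker sum among axonal libraries, 494 CPM, and stretched axon replicate 1 the highest endothelial or mural sum, 1951 CPM. These sums rest on few markers. Of 7 microglia markers 5 were at 0 in all control axons, and of 5 endothelial or mural markers 3 were at 0 in all stretched axons. The part of depth and of other cells in these values was not tested.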

How the results depend on the processing

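Same-numbered libraries were not taken as pairs, since in somata their deviations correlated at 0.0752 to 0.285 (5 pairs, 2 of 5 libraries best with their own number) and in the other comparisons at -0.0205 to 0.0702. With the replicate block, 4 of the 10 genes were called in stretched against control somata, against 3209 of 15632 genes tested. In stretched axons against somata it was 1 of the 10, against 7687 of 14466 genes, and Hspb1 (4.597) no longer passed. In somata Hsp90b1 and Hsbp1 (adjusted p = 0.0667 and 0.124) then missed the threshold, Fos, Hspb8 and Hsf2 (0.0162, 0.0165 and 0.0215) passed it, 2 J-domain genes rose and 3 fell, 2 ER chaperones rose and 0 fell, and 6 genes in all passed the interaction. In somata the 5 calls became 0 in 1 fit over all 4 groups, 0 by permutation and 0 in the 6 libraries with low Eif2s3y. In each of these 0 genes in all were called. With offsets and block 3 of the 10 were called, against 2025 of 15632 genes tested. The 6 with high Eif2s3y gave 5 calls, as did the low set without control replicate 4. The causes were not tested. Signs turned for Hspa1a (all 4 groups 0.028, offsets 0.071), Hspa1b (low Eif2s3y -0.10), Hspa4 (total counts 0.0017, all 4 groups 0.080, high Eif2s3y 0.23, leaving out 1 library -0.16 to 0.050) and Hspd1 (all 4 groups 0.0056). For stretch in axons, signs turned for Hspa8 (voom -0.40), Hsp90aa1 (voom -0.44, block -0.44, permutation -0.014, leaving out 1 library -0.050 to 0.32) and Hsp90ab1 (voom -0.18, leaving out 1 library -0.011 to 0.24). In control axons against somata, 1 gene was called without filter, with voom, in all 4 groups and by permutation. Over all genes tested these settings called 10714 of 30188, 8725 of 14728, 6374 of 16113 and 8325 of 14728. Leaving out 1 library, 0 to 2 were called, against 4542 to 8151 of all genes. Signs turned for Hspa8 (total counts 0.12, leaving out 1 library -0.34 to 0.023), Hsp90aa1 (no filter -0.11, block -0.082, all 4 groups -0.17, leaving out 1 library -0.11 to 0.095), Hsp90ab1 (total counts 0.0026) and Hspb1 (voom -3.07, block -2.79, permutation -0.36, leaving out 1 library -0.25 to 2.75). In stretched axons against somata, total counts gave 5 calls, and signs turned for Hsp90ab1 (voom -0.0077, all 4 groups -0.014, leaving out 1 library -0.074 to 0.11) and Hspd1 (RLE 0.062, total counts 0.43, DESeq2 0.062, leaving out 1 library -0.30 to 0.041). For the interaction, 0 to 2 of the 10 genes passed leaving out 1 library, against 3272 to 4540 of all genes. None of the gene values whose sign turned had passed its test, and the causes were not tested. For the 10 genes in somata, 220 alternative values stayed on their side of the threshold with the same sign, 34 lost and 6 gained a call, and 10 turned sign.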
